A study of Mus musculus with 8 samples.

Results

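The 10 genes described here are Chac2 and 9 genes of glutathione and thioredoxin metabolism, Gclc, Gclm, Gss, Gsr, Gpx1, Gpx4, Prdx1, Txn1 and Txnrd1, out of 52338 genes with values. Chac2 was chosen from its values in these libraries, which were higher in the treated groups than in the control. Its differences from the control are therefore given as a description with no test. The other 9 were taken by name from the same metabolism. All 10 had a mean of at least 1 FPKM (fragments per kilobase of exon, scaled to a library total) over the 8 libraries, the level that 14561 genes reached and that was required for testing.

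RNA was sequenced from mouse embryonic stem cells, pluripotent cells of the early embryo kept in culture, in a series on pluripotency and the long non-coding RNA linc1393. There were 4 groups of 2 libraries. The control was wild type and untreated, and the other groups were treated with sh-linc1393, sd-linc1393 or dd-linc1393 and are called sh, sd and dd below. The labels do not spell out these prefixes and give no strain, medium, clone or time after treatment. The control is labelled untreated, not mock-treated, so a response to linc1393 and a response to being treated at all cannot be told apart. The level of linc1393 was not analysed here. Each library carries a replicate number, 1 or 2, and nothing in the labels says what the number stands for. Separate cultures are not named either, and each p-value below reflects the spread among these 8 libraries, which may be technical.

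Depth ran from 3658365 reads (control replicate 2) to 20387064 reads (dd replicate 2), as recovered from the deposited values. Both control libraries were shallower than every treated library. Control replicate 1 had 6415120 reads, and the shallowest treated library, sh replicate 1, had 13738593. The part of depth in the differences from the control was not tested. All 15 stem cell markers checked reached 1 FPKM in every library. They summed to 1585 to 2071 FPKM in replicate 1 and 7265 to 10356 FPKM in replicate 2, a gap that lies largely in Dppa5a, a small stem cell protein, at 292 to 557 and 5866 to 8584 FPKM. Markers of other cells that a stem cell culture could hold were low against this. The 13 fibroblast feeder markers summed to 72.1 to 96.9 FPKM in replicate 1, where 4 to 7 were at 0, and to 120 to 185 FPKM in replicate 2. The 9 primitive endoderm markers summed to 40.2 to 55.9 FPKM in replicate 1 and 13.0 to 20.8 FPKM in replicate 2, and the 8 trophoblast markers to 10.6 to 14.0 and 21.8 to 33.6 FPKM. The libraries of 1 number resembled each other more than those of 1 group. Across the genes tested, Spearman's rho was 0.770 to 0.951 between groups within a number and 0.421 to 0.731 within a group across numbers. Between 30.9% and 37.7% of genes were above 0 in the replicate 1 libraries and between 62.4% and 89.0% in the replicate 2 libraries. For this reason every gene below is given by library, and by difference from the control library of the same number.

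Glutathione is a small tripeptide thiol that buffers the redox state of the cell. Glutamate-cysteine ligase, made of the catalytic subunit Gclc and the modifier subunit Gclm, joins glutamate to cysteine, and glutathione synthetase, Gss, adds glycine. Glutathione peroxidases such as Gpx1 and Gpx4 spend glutathione to remove peroxides, and glutathione reductase, Gsr, restores the oxidised form with NADPH. Chac2 is a cytosolic gamma-glutamylcyclotransferase that breaks glutathione down slowly, and in human embryonic stem cells it is known for keeping glutathione levels and self-renewal. The thioredoxin system runs beside this cycle: Txnrd1, an NADPH-dependent selenoprotein, reduces Txn1, and Txn1 reduces the peroxiredoxin Prdx1. Nrf2, the transcription factor of the oxidative stress response, drives Gclm, Txnrd1, Prdx1 and other genes of this group through antioxidant response elements.

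The promoter of Chac2 is shown because Chac2 is the gene on which the group turns, and the promoter stretches of Gclm, Prdx1 and Txnrd1 because they carry the core of the antioxidant response element. Chac1, the paralogue of Chac2, is shown for the C/EBP-ATF element bound by Atf4. Windows of 250 bases before the RefSeq gene start (GRCm38.p6) were searched on both strands for TGACNNNGC, the antioxidant element core, and TGATGNAA, the C/EBP-ATF element. Entries were found for 8 of the 10 genes, with 13 windows. The Chac2 window held neither motif. The sequences run 5′ to 3′ on the gene's strand, and capitals mark the match, which in all 4 matched stretches is the reverse complement of the searched letters.
Chac2, chr11:30986366-30986615, minus strand, upstream of Chac2 and inside an intron of Asb3 on the other strand: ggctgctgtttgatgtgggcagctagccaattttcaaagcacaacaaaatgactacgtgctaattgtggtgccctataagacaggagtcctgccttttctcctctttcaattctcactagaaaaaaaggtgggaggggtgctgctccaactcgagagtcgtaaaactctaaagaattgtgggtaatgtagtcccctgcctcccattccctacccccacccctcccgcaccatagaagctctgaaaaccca
Gclm, chr3:122245393-122245461, plus strand, upstream of the gene: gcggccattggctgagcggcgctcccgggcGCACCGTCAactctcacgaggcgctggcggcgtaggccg
Prdx1, chr4:116685436-116685504, plus strand, upstream of the gene: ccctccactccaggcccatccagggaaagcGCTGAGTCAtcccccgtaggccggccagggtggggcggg
Txnrd1, chr10:82859084-82859152, plus strand, upstream of an internal start and in no annotated exon: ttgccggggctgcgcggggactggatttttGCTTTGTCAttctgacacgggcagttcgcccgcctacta
Chac1, chr2:119351019-119351086, plus strand, upstream of the gene: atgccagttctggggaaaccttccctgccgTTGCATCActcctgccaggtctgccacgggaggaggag

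The antioxidant element core was found in the windows of Gclm and Prdx1 and in 1 of the 3 windows of Txnrd1, and in 10.2% of the 32851 windows of all genes. The C/EBP-ATF element was found in none of the 13 windows, against 3.45% of all windows. A match of letters is a description and not a bound site. The windows of Gss, Gpx1, Gpx4 and Txn1 held neither motif.

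Chac2 (ENSMUSG00000020309, chromosome 11, 30976707 to 30986350, minus strand, GRCm38) had 0.237 FPKM in control replicate 1, from 2 reads, and 2.49 FPKM in control replicate 2, from 12 reads. In sh it had 23.8 and 7.08 FPKM in replicates 1 and 2, from 430 and 130 reads. In sd it had 13.8 and 5.64 FPKM, from 370 and 114 reads, and in dd 12.3 and 10.1 FPKM, from 310 and 271 reads. The lowest treated library, sd replicate 2, lay above the higher of the 2 control libraries, and the control library at 0.237 FPKM stood far below the rest. Group means were 1.37 ± 1.60 FPKM in the control, 15.4 ± 11.8 for sh, 9.74 ± 5.79 for sd and 11.2 ± 1.55 for dd (SD, n = 2 each). On the log2(FPKM + 1) scale, the mean difference from the control was 2.77 for sh, 2.26 for sd and 2.55 for dd. These 3 differences share the same control libraries. In bulk RNA, more Chac2 RNA per cell and more cells with Chac2 RNA cannot be told apart.

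**Figure D1:**
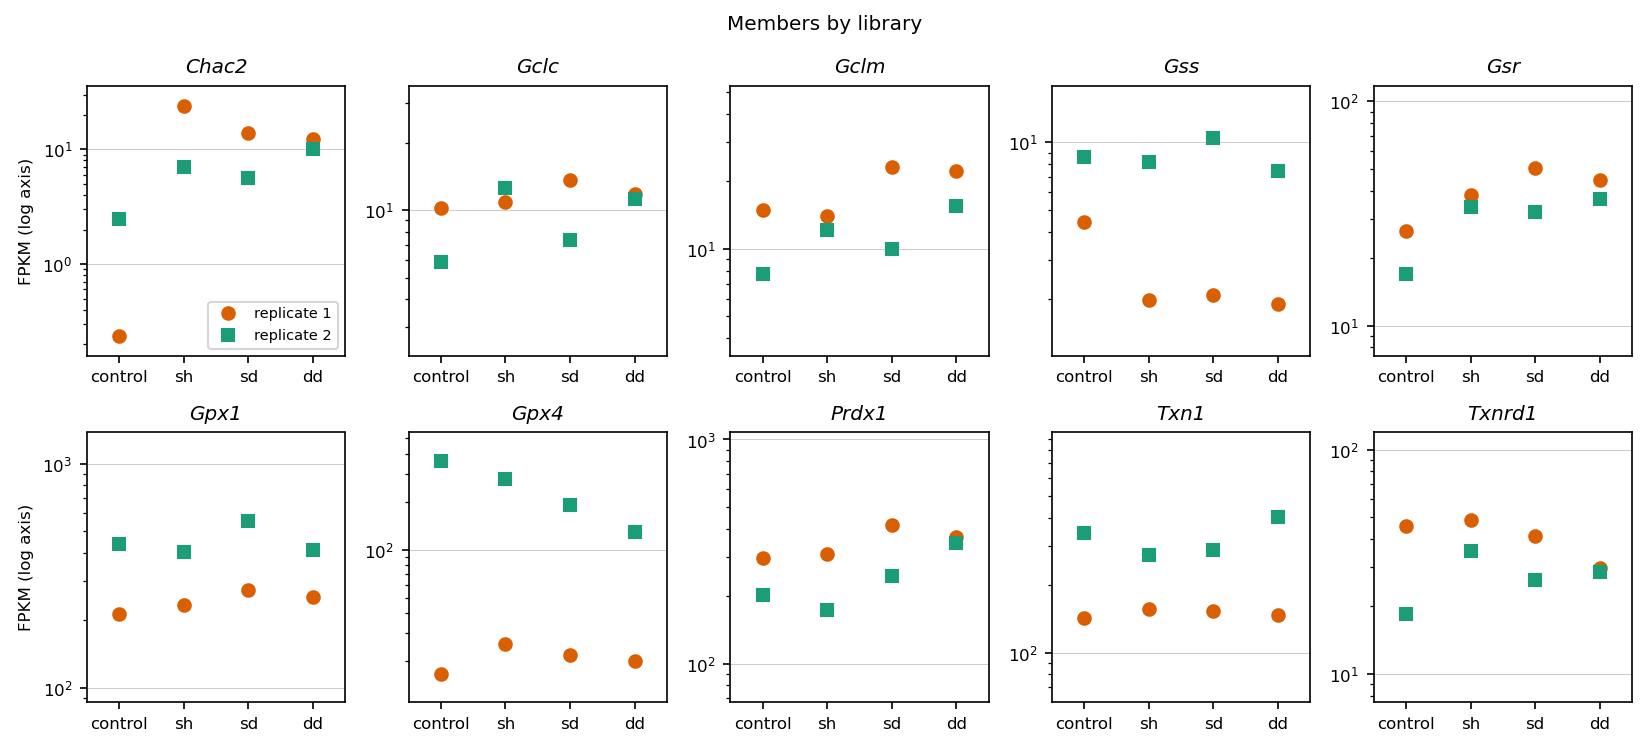
FPKM of each of the 10 genes in each library, on a log axis of its own for every gene, by group, with circles for replicate 1 and squares for replicate 2. Chac2 is lowest in both control libraries, Gsr is higher in every treated library than in either control, and Gpx4, Gss, Gpx1 and Txn1 separate by replicate number instead.

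The ratios of Chac2 reads are given by replicate number. They describe the values that chose Chac2, and each sets 1 library against 1 library, so the intervals show how few reads lie behind a ratio and are no test. Scaled to library totals, and against control replicate 1 with its 2 reads, Chac2 was 100.4 times as high in sh replicate 1 (exact 95% interval 27.6 to 832), 58.3 times in sd replicate 1 (16.0 to 483) and 51.9 times in dd replicate 1 (14.2 to 430.4). Against control replicate 2 it was 2.84 times as high in sh replicate 2 (1.57 to 5.63), 2.26 times in sd replicate 2 (1.25 to 4.51) and 4.05 times in dd replicate 2 (2.28 to 7.94). The intervals cover counting error only. The 3 ratios of a number share 1 control library as denominator, and that of replicate 1, with 2 reads, is below the 3 reads taken as the counting floor. The highest treated library was sh in replicate 1 and dd in replicate 2.

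Among the 14561 genes tested, Chac2 stood at percentile 18.7 and 22.6 in control replicates 1 and 2. It stood at percentile 85.6 and 51.7 in sh, 75.3 and 51.7 in sd, and 74.1 and 67.4 in dd. By FPKM it ranked 10 of 10 genes in both control libraries and also in sh replicate 2 and sd replicate 2. It ranked 9 in dd replicate 2, 8 in sd and dd replicate 1 and 7 in sh replicate 1, above Gclm, Gclc and Gss there. Against Gclc, the enzyme at the entry of glutathione synthesis, its FPKM ratio was 0.0231 and 0.424 in the controls, and between 0.564 (sh replicate 2) and 2.18 (sh replicate 1) in treated libraries.

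The 3 treated groups were also compared with each other. The choice of Chac2 used the same treated values, though against the control and not against each other. The control libraries also enter the spread that the fit shares over all groups. The log2 difference was -0.51 for sd minus sh, -0.22 for dd minus sh and 0.29 for dd minus sd, each with a standard error of 0.83 and an adjusted p of 1 (limma, Benjamini-Hochberg over 14561 genes). The differences were smaller than the spread between libraries. Between replicate numbers Chac2 differed by -0.38 (replicate 2 minus replicate 1, SE 0.46, limma adjusted p = 0.489). That value rests on single groups. Without either control library it was -1.01 (adjusted p = 0.0400 and 0.0216 in limma without control replicate 1 and 2), and without either sh library it was 0.026.

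Chac1, the paralogue known as a target of Atf4 in amino acid and endoplasmic reticulum stress, did not follow Chac2. It had 0.571 and 3.67 FPKM in control replicates 1 and 2, 0.222 and 2.93 in sh, 1.23 and 3.10 in sd, and 1.79 and 0.689 in dd. In sh it was below the control of the same number in both pairs, and in sd and dd it was above it in replicate 1 and below it in replicate 2. The counts behind it were 5 to 78 reads. The Chac2 to Chac1 ratio of FPKM was 0.415 and 0.679 in the controls and ran from 1.82 (sd replicate 2) to 107 (sh replicate 1) in the treated libraries.

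The genes around Chac2 on chromosome 11 are Asb3, Erlec1 and Gpr75. Asb3, a subunit of a ubiquitin ligase family, spans Chac2 on the other strand and shares no exon base with it. Asb3 had 2.19 and 2.07 FPKM in the controls, 4.05 and 2.26 in sh, 2.34 and 2.24 in sd, and 4.70 and 2.87 in dd. Its 6 treated libraries all lay above both controls, as those of Chac2 did, but 3 of them by a small margin, with the lowest at 2.24 FPKM against 2.19 in control replicate 1. Erlec1, a lectin of endoplasmic reticulum quality control, ran from 3.08 FPKM (sh replicate 1) to 6.24 FPKM (dd replicate 2), with the controls at 5.59 and 4.95 inside that range. Gpr75, a G protein-coupled receptor, was at or under 0.970 FPKM in every library, too low to be tested. The sources used here do not say whether counting used strand, and intronic Asb3 reads over Chac2 exons could not be told apart from Chac2 reads.

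**Figure D2:**
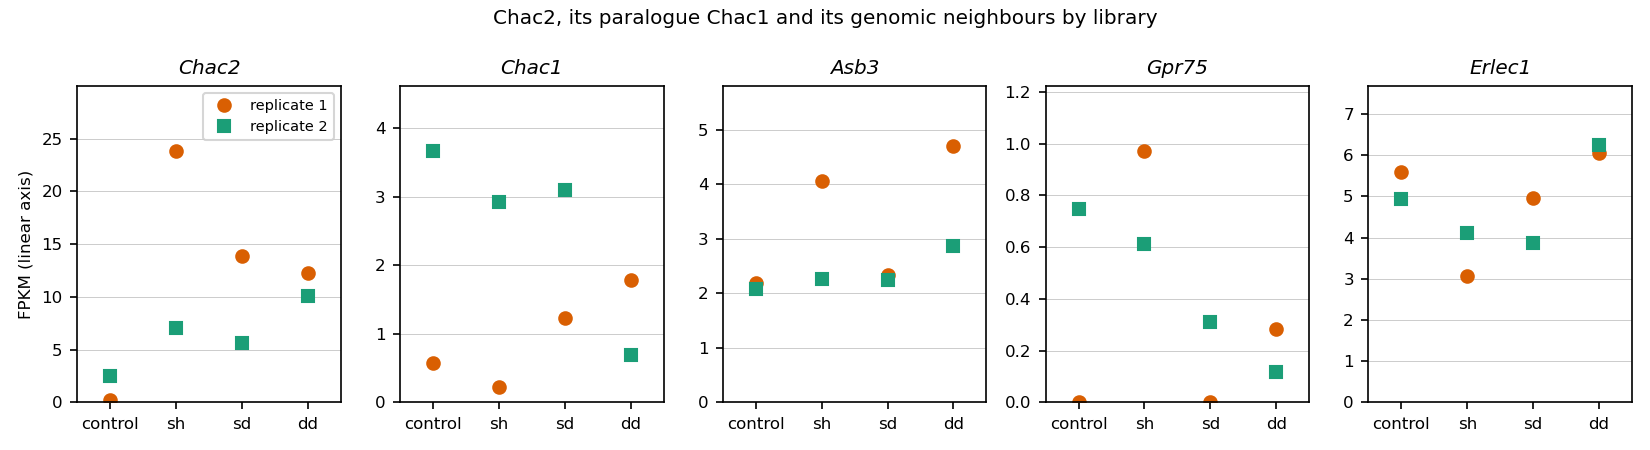
FPKM on a linear axis from 0, with its own scale for each gene, for Chac2, its paralogue Chac1 and the neighbouring genes Asb3, Gpr75 and Erlec1, by group, with circles for replicate 1 and squares for replicate 2. The treated libraries of Chac2 and of Asb3 all lie above both control libraries, those of Asb3 in part by a small margin.

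For the other 9 genes the comparison with the control was tested with limma across all genes. At an adjusted p of 0.05, 0 of 14561 genes (0%) were called in each treated group against the control, and also 0 (0%) in each comparison between treated groups. At an unadjusted p under 0.05, limma had 32 genes for sh, 50 for sd and 83 for dd against the control. The added count-based test (voom on the recovered reads) also called 0 in each, with 7, 11 and 24 genes under the unadjusted 0.05. Every adjusted p of these 9 genes was 1. In this fit, which does not use the replicate number, the gap between the numbers is part of the spread and of the standard errors below. The unadjusted counts were far below a share of 0.05 of all genes, the average when nothing differs. The 0 calls therefore do not show that nothing differed. With the replicate number added to the fit as a block, limma also called 0 genes in each. It then had 480, 945 and 1310 genes under the unadjusted 0.05 in sh, sd and dd.

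Gclc, the catalytic ligase subunit, had 10.3 and 5.88 FPKM in control replicates 1 and 2, 10.9 and 12.5 in sh, 13.6 and 7.36 in sd, and 11.8 and 11.3 in dd. The sh and dd libraries lay above both controls, and those of sd overlapped them. The log2 difference from the control was 0.53 for sh, 0.33 for sd and 0.51 for dd (SE 0.57 each). Within replicate numbers 1 and 2 it was 0.08 and 0.98 in sh, 0.38 and 0.28 in sd, and 0.19 and 0.83 in dd. Each treated library was thus above the control of its number, in replicate 1 of sh by a small margin.

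Gclm, the modifier subunit, had 14.8 and 7.69 FPKM in the controls, 14.0 and 12.1 in sh, 23.1 and 9.97 in sd, and 22.2 and 15.5 in dd. Only the dd libraries were both above both controls. The log2 difference from the control was 0.26 for sh, 0.47 for sd and 0.74 for dd (SE 0.65 each). The FPKM ratio of Gclc to Gclm, a comparison of the subunits per exon length, was 0.692 and 0.764 in the controls and 0.782 and 1.04 in sh. It was 0.590 and 0.738 in sd and 0.534 and 0.725 in dd, so the ratio was above the control of the same number in sh and below it in sd and dd.

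Gss, which completes glutathione, went the other way from Chac2 in replicate 1. It had 4.40 FPKM in control replicate 1 and 1.98, 2.09 and 1.91 FPKM in sh, sd and dd replicate 1. In replicate 2 it had 8.64 FPKM in the control, 8.19 for sh, 10.5 for sd and 7.46 for dd. The within-number log2 differences were -0.86 and -0.07 in sh, -0.80 and 0.25 in sd, and -0.89 and -0.19 in dd. The lower level was thus found in replicate 1, and the replicate 2 libraries lay on both sides of their control. Gss shares exon bases with Acss2 (395 bases) and the antisense genes Gssos1 (322) and Gssos2 (385), all on the other strand, so without stated strand use some of its reads could belong to them.

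Gsr, glutathione reductase, was the only gene of the 10 besides Chac2 whose 6 treated libraries all lay above both controls. The neighbour Asb3, the thioredoxin gene Txndc9, the NADPH supply gene Me1 and the stem cell markers Dppa4 and Tfcp2l1 had this pattern too. These are examples. The share of the pattern over all genes tested was not counted, so it is not read as particular to Gsr. Gsr had 26.3 and 17.0 FPKM in the controls, 38.2 and 33.8 in sh, 50.6 and 32.2 in sd, and 44.7 and 36.6 in dd. Group means were 21.6 ± 6.61 in the control, 36.0 ± 3.08 for sh, 41.4 ± 13.0 for sd and 40.7 ± 5.73 for dd (SD, n = 2 each). The log2 difference was 0.74 for sh and 0.90 for both sd and dd (SE 0.60 each), not past the test in limma. Unlike Chac2, Gsr was well counted, with 171 to 2834 reads. Its within-number differences were 0.52 and 0.95 in sh, 0.92 and 0.88 in sd, and 0.74 and 1.07 in dd. All were positive, and only those of sd were alike in both numbers. Over the settings tried the log2 difference of Gsr from the control ran from 0.44 to 1.22.

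**Figure D3:**
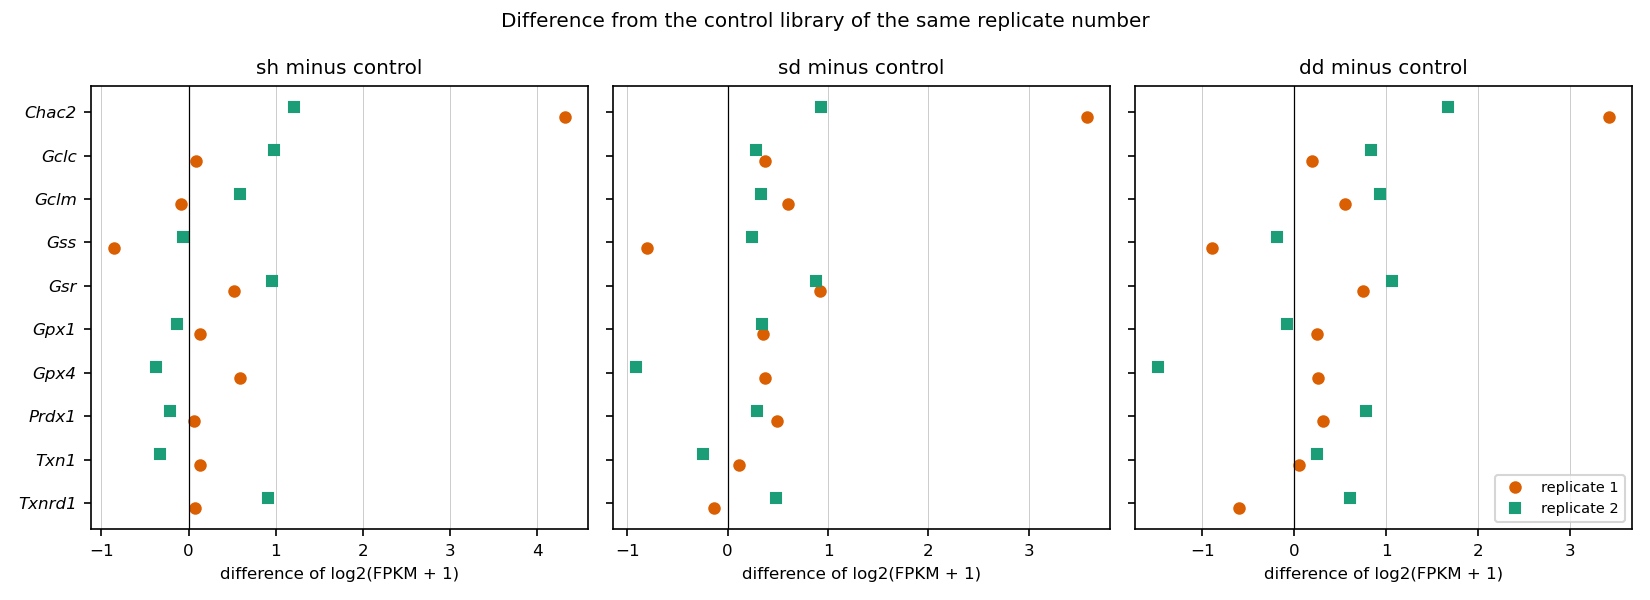
Difference in log2(FPKM + 1) between each treated library and the control library of the same replicate number, for each of the 10 genes, in panels for sh, sd and dd. Chac2, Gclc and Gsr lie to the right of 0 for both numbers in all 3 panels, Chac2 far more in replicate 1. Gpx4 lies to the right in replicate 1 and to the left in replicate 2.

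Gpx1, the abundant cytosolic glutathione peroxidase, had 213 and 439 FPKM in control replicates 1 and 2, 233 and 402 in sh, 272 and 555 in sd, and 253 and 414 in dd. The numbers did not overlap, and within each number the treated libraries differed from the control by at most 0.35 log2. Its log2 difference from the control was 0.00 for sh, 0.35 for sd and 0.08 for dd (SE 0.82 each). Gpx4, which reduces lipid peroxides and protects cells from ferroptosis, had 16.5 and 362 FPKM in the controls, 25.5 and 279 in sh, 21.8 and 192 in sd, and 20.0 and 129 in dd. Treated libraries were above the control in replicate 1 (0.59, 0.37 and 0.26 log2 in sh, sd and dd) and below it in replicate 2 (-0.38, -0.91 and -1.49). This opposite direction by number was not tested. Its group differences were 0.11 for sh, -0.27 for sd and -0.61 for dd with an SE of 1.98 each, which holds the gap between the numbers.

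Prdx1, the peroxiredoxin that Txn1 recharges, had 296 and 201 FPKM in the controls, 309 and 173 in sh, 416 and 246 in sd, and 367 and 346 in dd. Both dd libraries lay above both controls, and sh and sd overlapped them. Txn1, thioredoxin itself, had 142 and 341 FPKM in the controls, 156 and 272 in sh, 154 and 288 in sd, and 148 and 405 in dd. In replicate 1 its 4 libraries lay between 142 and 156 FPKM, in proportion the narrowest range of the 10 genes in that number. Txnrd1, its reductase, had 45.7 and 18.4 FPKM in the controls, 48.3 and 35.4 in sh, 41.4 and 26.2 in sd, and 29.8 and 28.5 in dd. In replicate 2 all treated libraries exceeded the control, by 0.91, 0.49 and 0.61 log2, and in replicate 1 sd and dd were below it, by -0.14 and -0.60. The Txn1 to Txnrd1 ratio of FPKM was 3.12 to 4.96 in replicate 1 and 7.69 to 18.5 in replicate 2, with the highest value in control replicate 2.

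Counted per comparison, 4 of the 10 genes were higher in sh than in the control within both replicate numbers (Chac2, Gclc, Gsr and Txnrd1), against 35.2% of all genes tested, and 1 (Gss) was lower, against 10.6%. In sd, 6 were higher (Chac2, Gclc, Gclm, Gsr, Gpx1 and Prdx1), against 37.5%, and 0 were lower, against 12.7%. In dd, 6 were higher (Chac2, Gclc, Gclm, Gsr, Prdx1 and Txn1), against 31%, and 1 (Gss) was lower, against 15.1%. The sh count is near the share of all genes. The counts include Chac2, whose direction was fixed by its choice, and the 3 comparisons share the control libraries. The median log2 difference of the 10 genes was 0.18 in sh, 0.34 in sd and 0.33 in dd, beside 0.15, 0.17 and 0.06 over all genes tested.

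Stem cell markers were counted in the same way. Of the 15, 9 were higher than the control within both numbers in sh, 11 in sd and 11 in dd, and 2, 1 and 1 were lower. Over all genes tested the shares were 35.2%, 37.5% and 31% higher and 10.6%, 12.7% and 15.1% lower. Pou5f1, which encodes the core pluripotency factor Oct4, had 83.1 and 251 FPKM in control replicates 1 and 2, 24.2 and 14.7 in sh, 17.8 and 129.8 in sd, and 21.03 and 53.1 in dd. Each treated library was thus below the control of its number. Sox2, its partner, had 19.7 FPKM in sh replicate 2 against 291 FPKM in control replicate 2, and 177 to 371 FPKM in the other 6 libraries. Both genes were named after their values were seen. None of the 15 was called against the control in limma, and the part of these markers in the differences of the redox genes was not tested.

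The libraries of the 2 replicate numbers were also compared. In a limma fit with group as a term, replicate 2 minus replicate 1 was higher for 6787 of 14561 genes (46.6%) and lower for 2133 (14.6%), with a median over all genes of 0.73 log2. Of the 10 genes, 4 were higher and 2 lower, near the shares of all genes. Gpx4 differed most of the 10, by 3.37 log2 (SE 0.30, limma adjusted p = 2.5e-05), from 20.9 ± 3.71 FPKM in replicate 1 to 240.1 ± 102 FPKM in replicate 2 (SD, n = 4 each). Gss differed by 1.47 (SE 0.27, limma adjusted p = 0.00164), from 2.60 ± 1.21 to 8.69 ± 1.28 FPKM. Txn1 differed by 1.10 (SE 0.21, limma adjusted p = 0.00188) and Gpx1 by 0.89 (SE 0.19, limma adjusted p = 0.00345), close to the median of all genes. In all 4 genes the 4 replicate 2 libraries lay above the 4 of replicate 1. How many of all genes tested separate in this way was not counted, so the separation is not read as particular to these genes.

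The lower 2 genes were Gclm, at -0.67 (SE 0.26, limma adjusted p = 0.0480), and Prdx1, at -0.56 (SE 0.21, limma adjusted p = 0.0438). Both calls lay near the threshold and were not stable. In this fit, leaving out 1 library takes its group out of the comparison and lowers the degrees of freedom. Prdx1 was still at -0.56 without either control library. Leaving out any 1 library other than sh replicate 2 ended the call of Gclm, at adjusted p from 0.0559 to 0.228 in limma, and leaving out either control, sh or sd library ended that of Prdx1, at 0.0532 to 0.182. Txnrd1 (-0.60), Gsr (-0.42) and Gclc (-0.35) pointed the same way without passing the test, with limma adjusted p of 0.0735, 0.136 and 0.285. Txnrd1 passed without either dd library, at -0.78 (limma adjusted p = 0.0472 without dd replicate 1 and 0.0434 without dd replicate 2).

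The split of calls between higher and lower depends on how the libraries are scaled. As deposited, 76.1% of all calls were higher in replicate 2, against 48.0% when the libraries were quantile normalized and 57.9% with median ratio scaling. Under either of these, 2 of the 10 genes were called higher, Gpx4 and Gss, and 5 lower, Gclc, Gclm, Gsr, Prdx1 and Txnrd1. Of all genes tested, 27.6% were called higher and 29.8% lower with quantile normalization, and 34.3% and 24.9% with median ratio scaling. Gpx4 and Gss were called higher in all 16 settings tried. Gpx1 and Txn1 lost their call under both scalings and turned to -0.43 and -0.073 with quantile normalization. The levels of the stem cell markers given above, and the share of genes above 0, move with the replicate number as well, and their part in these differences was not tested.

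**Figure D4:**
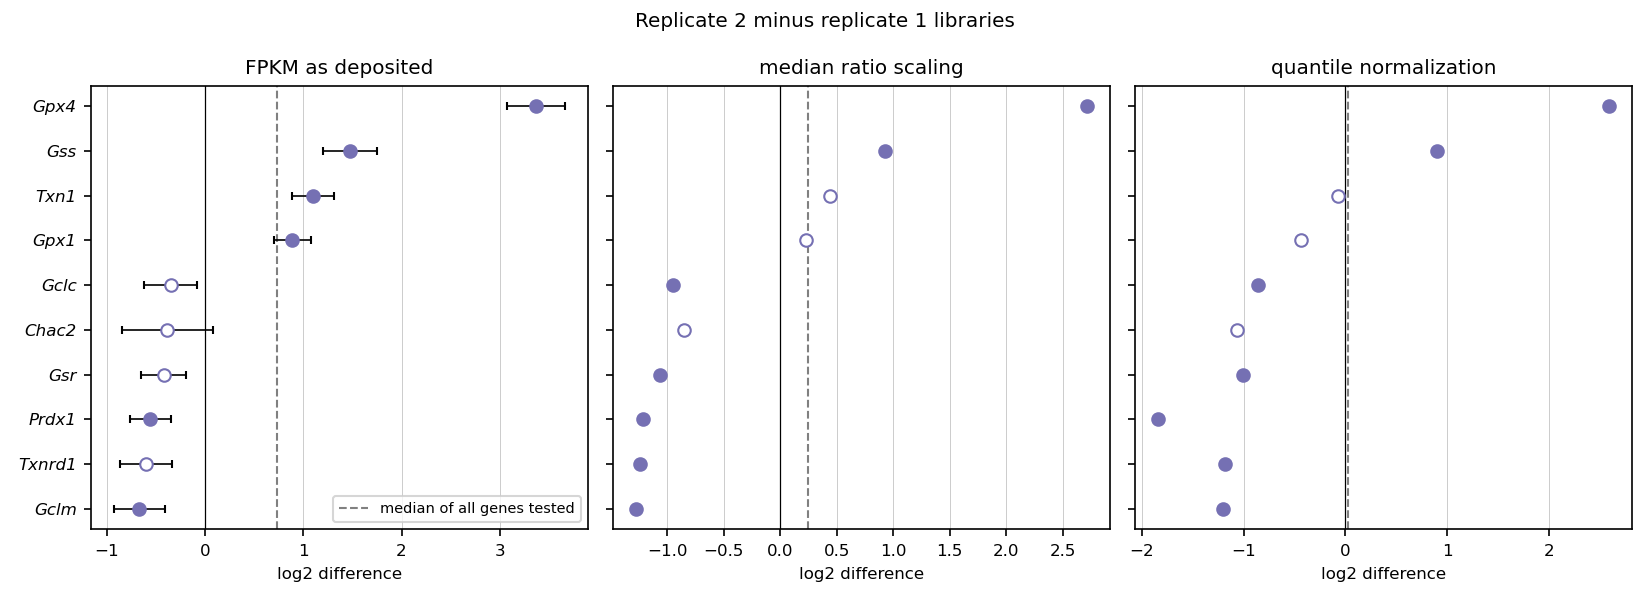
Difference in log2(FPKM + 1) between replicate 2 and replicate 1 libraries for the 10 genes, in panels for the deposited FPKM (bars are 1 standard error), median ratio scaling and quantile normalization, each with its own x axis. Filled points passed an adjusted p of 0.05, open points did not, and the dashed line is the median of all genes tested. Gpx4 and Gss lie to the right of the median in every panel, and Gclm, Txnrd1, Prdx1, Gsr, Chac2 and Gclc to the left.

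Sequence shared with other genes bears on 5 of the 10. Of the 31-base stretches of Gpx4 exons, 38.9% also occur in another gene, almost all of them in the pseudogene Gpx4-ps2, compared with 15.4% for Prdx1, 12.8% for Gss, 6.95% for Txn1, 6.83% for Gclm and 0% for Chac2, Gclc, Gsr, Gpx1 and Txnrd1. Gclm shares exon bases with the processed pseudogene Gm6061 on its own strand (244 bases) and with Gm17494 on the other (296 bases). The copies named here were looked at after their values were seen. Gpx4-ps2 had 79.9 to 90.5 FPKM in replicate 1 and 809 to 2020 FPKM in replicate 2, and took 60.9% to 69.0% of the reads of gene and copy together in replicate 1 and 71.4% to 78.4% in replicate 2. The summed reads of Gpx4 and Gpx4-ps2 were 92.1 to 112 CPM (counts scaled to a common library total) in replicate 1 and 865 to 2231 CPM in replicate 2. The difference by number was therefore as large in the sum, 15.1 times by means, as in Gpx4 alone, 11.5 times by mean FPKM. Txn1 with Txn-ps1 came to 215 to 241 CPM in replicate 1 and 555 to 973 CPM in replicate 2. Prdx1 with Gm21399 overlapped between the numbers, at 1169 to 1682 and 839 to 1635 CPM. By means, replicate 2 was 0.861 times replicate 1 in that sum, against 0.696 times for the FPKM of Prdx1 alone.

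The other genes of glutathione and thioredoxin metabolism were taken as 11 lists. None of their tested genes was called against the control in limma in any treated group. Within replicate numbers the cystine supply and transsulfuration list, which brings cysteine to glutathione, had 8 of 10 genes tested, and 6 were higher than the control in both numbers in sh, 6 in sd and 5 in dd, with 0 lower in each. Over all genes tested these shares are 35.2%, 37.5% and 31% higher and 10.6%, 12.7% and 15.1% lower, and the counts of every list below stand against them. Mat2a, which makes the methyl donor S-adenosylmethionine, had 98.4 and 23.6 FPKM in the controls and 100.2 and 26.6 in sh. In sd it had 141 and 38.8 FPKM and in dd 112 and 37.1 FPKM. Slc7a11, the cystine importer that feeds glutathione synthesis, was near 0 in replicate 1, at 0.0112 to 0.0487 FPKM, and at 0.176 to 1.21 FPKM in replicate 2, and was too low to be tested.

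In the list of other thioredoxin genes all 10 were tested, and 7 were higher in both numbers in sh, 6 in sd and 5 in dd, with 2, 1 and 3 lower, against 35.2%, 37.5% and 31% of all genes higher and 10.6%, 12.7% and 15.1% lower. Txnip, which binds and inhibits thioredoxin, had 33.0 and 78.8 FPKM in the controls, 39.1 and 192 in sh, 53.9 and 137 in sd, and 46.7 and 116 in dd. Txndc17, a small thioredoxin-like protein, had 61.2 and 74.3 FPKM in the controls and 106 and 168 in dd. Among the 17 of 23 glutathione transferases tested, 3 were higher in both numbers in sh, 7 in sd and 6 in dd, with 0, 0 and 2 lower. The counts of sd and dd are near the shares of all genes here. Gsta4, which conjugates lipid aldehydes, had 122 and 274 FPKM in the controls, 192 and 350 in sd, and 166 and 410 in dd. Of the 13 tested Nrf2 regulators and targets, 4 were higher in both numbers in each treated group, and 2, 1 and 2 were lower in sh, sd and dd, near the shares of all genes. Fth1, the ferritin heavy chain that stores iron, had 82.0 and 145 FPKM in the controls and 97.8 to 228 FPKM in treated libraries. Ftl1, the light chain, had 24.1 and 217 FPKM in the controls, 46.8 and 251 in sh, 41.1 and 104 in sd, and 45.9 and 62.5 in dd, so that in sd and dd it was above the control in replicate 1 and below it in replicate 2, as Gpx4 was.

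For the gamma-glutamyl cycle, 4 of 10 genes were tested, and 2, 3 and 1 were higher in both numbers in sh, sd and dd, with 1, 0 and 0 lower. Lap3, a peptidase that can split cysteinylglycine, had 119.9 and 56.6 FPKM in the controls and 75.0 to 157 FPKM in treated libraries, each above the control of its number. Cndp2, another such peptidase, had 4.04 and 20.4 FPKM in the controls and 5.74 to 29.1 FPKM in treated libraries. Of these, dd replicate 2, at 17.3 FPKM, was below the control of its number and the others were above theirs. In the same order of groups, the other glutathione peroxidases had 2, 0 and 0 of 4 genes higher and 0 lower in each. The other peroxiredoxins had 2, 2 and 0 of 6 higher and 1, 0 and 1 lower, and the glutaredoxins 1, 2 and 1 of 4 higher and 2, 0 and 1 lower. The NADPH supply genes had 4, 4 and 2 of 9 higher and 0, 0 and 1 lower. Superoxide and peroxide removal had 2 of 4 higher in each group and 1, 0 and 0 lower, and selenoprotein synthesis 2 of 6 higher in each and 0, 1 and 1 lower. With so few genes a list, none of these counts is read as apart from the shares of all genes. Cat, catalase, had 17.9 and 29.1 FPKM in the controls, 19.0 and 48.1 in sh, 31.7 and 46.6 in sd, and 22.8 and 50.6 in dd. Sod1, the cytosolic superoxide dismutase, stayed between 90.9 and 119.7 FPKM in all 8 libraries.

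Between replicate numbers, many genes of these lists passed the test, as did many of all genes tested. Glutathione transferases were higher in replicate 2 for 11 of 17 genes and lower for 1, Nrf2 regulators and targets for 9 and 2 of 13, other thioredoxin genes for 6 and 0 of 10, other peroxiredoxins for 5 and 1 of 6, and NADPH supply genes for 5 and 1 of 9. Cystine supply genes were higher for 3 and lower for 4 of 8. Glutaredoxins, superoxide and peroxide removal and the other glutathione peroxidases each had 2 higher and 0 lower of 4. The gamma-glutamyl cycle had 1 and 1 of 4, and selenoprotein synthesis 1 and 1 of 6. The background is 46.6% higher and 14.6% lower. These counts are for the deposited scaling only and are not read as apart from the background. Sephs2, which makes the selenium donor for selenoproteins such as Gpx4 and Txnrd1, had 1964 to 5137 FPKM in replicate 1 and 17.6 to 42.7 FPKM in replicate 2, a log2 difference of -6.87 (SE 0.27, limma adjusted p = 1.64e-06). Sephs2 shares 792 exon bases, 36.4% of its exon length, with Gm44729 on the other strand, which had 0 to 0.523 FPKM. Without stated strand use, some of the Sephs2 reads could belong to Gm44729. Idh1, a cytosolic source of NADPH, had 393 to 613 FPKM in replicate 1 and 37.3 to 68.6 in replicate 2, and the mitochondrial Prdx3 115 to 257 and 19.8 to 31.8. Idh2, the mitochondrial counterpart of Idh1, went the other way, from 19.7 to 37.6 FPKM in replicate 1 to 93.8 to 134 in replicate 2.

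**Figure D5:**
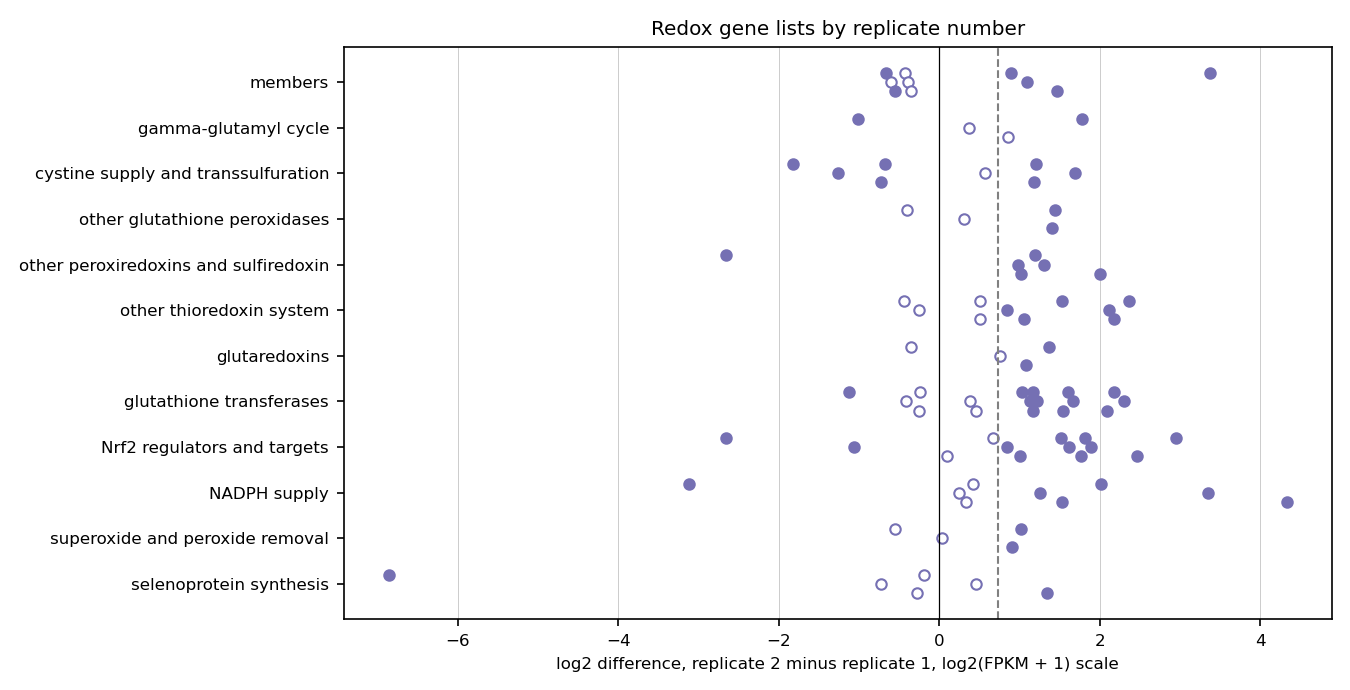
Difference in log2(FPKM + 1) between replicate 2 and replicate 1 libraries for every tested gene of the 10 members and of 11 related lists, 1 point a gene. Filled points passed an adjusted p of 0.05 in limma and the dashed line is the median of all genes tested. Sephs2 is the point near -6.87 in the selenoprotein list, and the transferases, peroxiredoxins and Nrf2 genes lie mostly to the right of 0, as the median does.

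The genes whose pattern was most like that of Chac2 were found by correlation over the 8 libraries, after the mean of the libraries with the same number was taken from each value. The points share control libraries and the low control replicate 1, so r is a description and carries no p. The 5 protein-coding genes with the highest Pearson r were Med4 (0.997), Nars2 (0.994), Rsrc1 (0.985), Nectin3 (0.984) and Lin52 (0.983). Med4, a subunit of the Mediator complex, had 6.70 and 11.5 FPKM in the controls and 13.8 to 16.9 FPKM in treated libraries. Nars2, the mitochondrial asparaginyl-tRNA synthetase, had 0.157 and 1.53 FPKM in the controls and 2.39 to 4.06 FPKM in treated libraries. Lin52, a subunit of the DREAM complex that represses cell cycle genes, had 8.12 and 2.90 FPKM in the controls, 18.1 to 25.2 in treated replicate 1 libraries and 3.997 to 5.13 in treated replicate 2 libraries. An r above 0.9 with Chac2 was found for 225 of 14560 genes (1.55%). Of the 9 other redox genes, Gsr was the most like Chac2, at 0.74, followed by Gclc and Gclm, at 0.45 each, and Gss had the opposite pattern, at -0.90.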

How the data were processed

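The deposited values are FPKM per gene and library, per the file headers, from total RNA libraries made with Illumina protocols, per the labels' protocols. CASAVA 1.4, HISAT2 and mm10 are named in the submitters' processing notes. Not given in the sources used here are the counting program, the annotation, the formula of the FPKM and any use of strand. Of 58420 rows, 6082 had no value, and 52081 of the remaining 52338 matched a GENCODE M21 gene by identifier. FPKM times exon length gave whole reads (tolerance 0.02) in 98.3% to 98.9% of each library's values below 100 reads, and reads and totals were recovered this way. The totals are reads assigned to genes.

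Groups were taken from the labels. The test was limma 3.58.1 (R 4.3.3) on log2(FPKM + 1), genes with a mean of at least 1 FPKM over the 8 libraries, 4 groups fitted together (4 residual degrees of freedom), a variance trend, two-sided p-values, and Benjamini-Hochberg adjustment per contrast at 0.05. The scale understates changes of low genes. A fit with group and replicate number gave the difference by number. Chac2 against the control was not tested. Alternatives were other pseudocounts, filters, scalings and fits, a replicate block, leaving out each library and, added after seeing the data, voom on the recovered reads with and without the block. The scripts were tested on simulated data. The members and lists were chosen with earlier results of these data known. Named genes are the 10 members, the 2 genes of each list with the highest mean, Chac1, Slc7a11, the neighbours of Chac2 and the 5 genes most like it. Not all of the named list genes are printed. Genes named beside them (processed copies, and list genes that share the pattern of Gsr) were chosen after their values were seen.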

Additional observations from a re-analysis of the deposited data

How the results depend on the processing

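The number of genes called against the control and between treated groups was 0 under every alternative run, the replicate block and voom included, and leaving out each library gave 0 to 0. With the replicate block, limma called 0 genes in each comparison, with 480 (sh), 945 (sd) and 1310 (dd) genes against the control at an unadjusted p under 0.05, and voom on recovered reads with the block called 0, with 442, 950 and 1487. Having 2 libraries a group and 4 residual degrees of freedom limit what these comparisons can call. For Gsr the replicate block gave an SE of 0.32 in place of 0.60 and a limma adjusted p of 0.999 in sh, 0.723 in sd and 0.553 in dd (unadjusted 0.0486, 0.0213 and 0.0209), and 0 of the 9 genes besides Chac2 passed in any comparison with the control. For Gpx4 the SE was 0.42 in place of 1.98. The log2 difference of Chac2 from the control ran from 1.96 to 3.81 in sh, 1.51 to 3.26 in sd and 1.80 to 3.59 in dd, with sd and dd at 3.26 and 3.59 at a pseudocount of 0.1. Its direction was fixed by its choice, and the low reads of control replicate 1 limit its size. Over the 10 genes against the control, 33 of 240 values changed sign when a library was left out and 6 of 240 under the other settings. Between replicate numbers, 8920 genes were called, and 6860 to 9063 when each library was left out in turn. With a mean of at least 5 FPKM, 5368 were called, since 7503 genes were then tested. By number, Chac2 ran from -1.01 to 0.026 when each library was left out, the latter without sh replicate 1 or sh replicate 2, and Gpx1 turned to -0.43 and Txn1 to -0.073 after quantile normalization. The cause was not tested. Same-numbered libraries deviated together (r of 0.75 to 0.89), but there are 2 numbers and the labels do not say what they mark, so the numbers were not taken as pairs.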
